A study of Homo sapiens with 12 samples.

Results

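The 9 transcription factors described here are *NEUROG1*, *NEUROG2*, *NEUROD1*, *NEUROD2*, *NEUROD4*, *POU4F1*, *POU4F2*, *POU3F2* and *TLX3*. They were chosen by name, as the genes whose symbol equals one of these in the tables of 2 human neuron types, and 9 of the 19329 genes in either table were matched. RNA-seq, in which reads are assigned to genes as a measure of their RNA, was performed on 12 libraries in 4 groups of 3. Motor neurons (iMNs) were derived from 1 iPSC line carrying Td-Tomato under the HB9 promoter and were sorted for Td-Tomato, and i3Ns, labelled as cortical neurons, were derived from H1 cells, an established human ES cell line engineered for inducible NGN2. In each neuron type, 1 group expressed a scrambled shRNA (SCR) and the other an shRNA against *SMN1* and *SMN2* (*SMN*-KD). Both came from a lentivirus whose shRNA is switched on by doxycycline, so that the drug and an shRNA were common to all groups. Per the paper, doxycycline also induces NGN2 in i3Ns, so the drug did not act alike in the neuron types.

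The value used is the mean normalized count that the authors deposited for each gene, 1 value for each neuron type. It is the count divided by a factor for library size, averaged over 6 libraries, and it pools the 3 SCR and the 3 *SMN*-KD libraries. The effect of *SMN*-KD on these genes was therefore not analysed here, and the levels below compare neuron types. No spread between libraries and no total count per library can be read from these means, so depth is unknown, no difference was tested and no error is given. Each neuron type came from 1 stem cell line and 1 protocol, and its table was normalized separately, so neuron type, line, protocol and table cannot be told apart. In bulk RNA, fewer cells that express a gene and less RNA per cell cannot be told apart either.

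Neurogenins (NEUROG1 and NEUROG2) are basic helix-loop-helix (bHLH) proteins that commit progenitors to a neuronal fate and switch on the NEUROD factors, which carry the program into the young neuron. POU4F1 (BRN3A) and POU4F2 (BRN3B) are POU homeodomain proteins known from sensory neurons and retinal ganglion cells, and POU3F2 (BRN2) is a POU factor of cortical progenitors and upper-layer neurons. TLX3 is a homeodomain protein that selects glutamatergic over GABAergic fate in the dorsal spinal cord. NEUROG2 is the factor called NGN2, and it is the transgene by which i3Ns are made.

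All 9 genes had a row in the i3N table and 6 had a row in the iMN table. The i3N table is the longer one in general, with 19016 genes against 16406 in the iMN table. Of all genes, 16093 were listed in both, 2923 in i3Ns alone and 313 in iMNs alone. *NEUROG1*, *NEUROD2* and *POU4F2* had no iMN row. The lowest value listed was 7.73 normalized counts in the iMN table and 1.37 in the i3N table, and the filter behind a missing row is not given in the sources used here, so no level is given for those 3 genes in iMNs. Of the 6 genes in both tables, 5 had a higher mean normalized count in i3Ns and *NEUROG2* had a lower one. Differences between tables are given on the log2 scale as i3N minus iMN, centred on the median of the 12071 genes that reached 100 normalized counts in both tables, which moved each by 0.10. For comparison, 48.3% of the 16093 genes in both tables were higher in i3Ns on this scale, and 9.46% were higher by over 1, against 4 of the 6 members. Among genes under 100 normalized counts in iMNs, where those 4 members lie, 51.2% were higher in i3Ns and 23.4% by over 1.

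**Figure D1:**
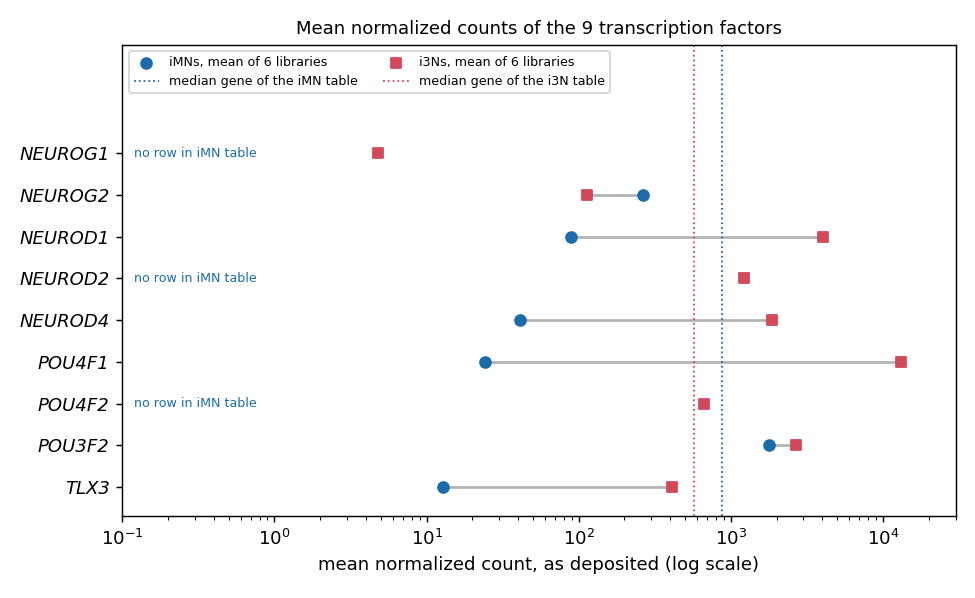
Mean normalized count of each gene as deposited, on a log axis. Circles are iMNs and squares i3Ns, each the mean of 6 libraries with SCR and *SMN*-KD pooled and no error available, and dotted lines mark the median gene of each table (875 in iMNs and 577 in i3Ns). *POU4F1* spans the widest gap, 24.2 against 13128, and *NEUROG2* alone lies higher in iMNs.

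The neurogenins were the lowest of the 9 genes in i3Ns. *NEUROG2* (ENSG00000178403, chromosome 4 of GRCh38 from 112513516 to 112516180, minus strand) had a mean normalized count of 263 in iMNs and 114 in i3Ns. Its centred log2 difference was -1.31, a level 2.47 times as high in iMNs. In i3Ns it stood at 49.7 normalized counts per kb of transcript and at percentile 33.7 of the genes in the table. Reads from the NGN2 transgene may be counted in this row, and whether any are was not tested. *NEUROG1* (ENSG00000181965, chromosome 5 from 135534282 to 135535964, minus strand) was listed at 4.77 normalized counts in i3Ns, the lowest of all 9. The gene lies inside *SLC25A48*, a gene on the opposite strand that was itself listed at 10.9 in iMNs and 1.99 in i3Ns.

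The NEUROD genes were high in i3Ns. *NEUROD1* (ENSG00000162992, chromosome 2 from 181668295 to 181680827, minus strand) had a mean normalized count of 88.8 in iMNs and 4039 in i3Ns, a centred difference of 5.41 or 42.5-fold. *NEUROD4* (ENSG00000123307, chromosome 12 from 55019974 to 55030017, plus strand) had one of 41.2 in iMNs and 1863 in i3Ns, a centred difference of 5.40 or 42.2-fold. Both genes thus differed by nearly the same factor although their levels did not match. *NEUROD2* (ENSG00000171532, chromosome 17 from 39603536 to 39609777, minus strand) was listed in i3Ns alone, at 1215. Of the 2923 genes with a row in the i3N table only, the median was 4.49 normalized counts and 28, *NEUROD2* included, stood at or above its level.

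*POU4F1* gave the widest gap among the members. It (ENSG00000152192, chromosome 13 from 78598362 to 78603552, minus strand) had a mean normalized count of 24.2 in iMNs and 13128 in i3Ns, a centred difference of 8.98 or 506-fold. Of the 15481 genes in both tables that are in the main GENCODE annotation, none had a larger difference toward i3Ns. Over all 16093 genes 1 identifier did, that of *BAG6* (ENSG00000234651), which is outside that annotation. *POU4F2* (ENSG00000151615, chromosome 4 from 146638893 to 146642474, plus strand) was listed in i3Ns alone, at 668, where 42 of the 2923 genes listed there only were at or above it.

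*POU3F2* was the member that differed least. It (ENSG00000184486, chromosome 6 from 98834574 to 98839458, plus strand) had a mean normalized count of 1792 in iMNs and 2672 in i3Ns, a centred difference of 0.48 or 1.39-fold. Among the 16093 genes listed in both, 3566 had a larger difference toward i3Ns, and the difference of *POU3F2* stood at percentile 77.8. *TLX3* (ENSG00000164438, chromosome 5 from 171309248 to 171312139, plus strand) had a mean normalized count of 12.8 in iMNs, the lowest member there, and 410 in i3Ns. Its centred difference was 4.90 or 29.8-fold.

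**Figure D2:**
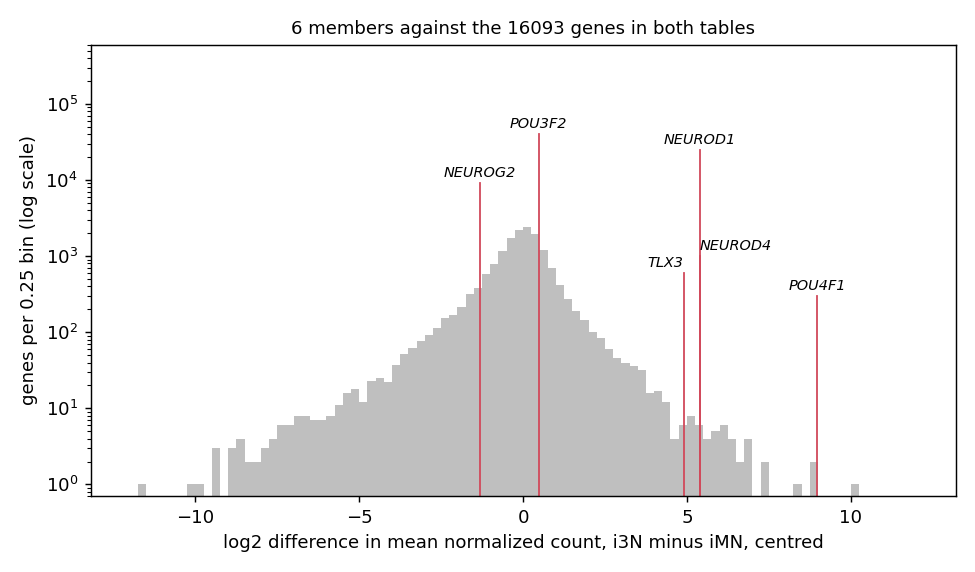
Histogram of the centred log2 difference, i3N minus iMN, over the 16093 genes in both tables in bins of 0.25, with a log vertical axis and a red line at each of 6 members. Line heights carry no value. *POU3F2* (0.48) and *NEUROG2* (-1.31) lie within the bulk of genes, while *TLX3* (4.90), *NEUROD4* (5.40), *NEUROD1* (5.41) and *POU4F1* (8.98) lie in the upper tail.

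Differences of that size were rare among all genes. The members were chosen with earlier results of these data known, so this rarity is a description and not a test. A centred difference above 5 was found for 45 of the 16093 genes (0.28%), among them *POU4F1*, *NEUROD1* and *NEUROD4*, and for 1.18% of the 3380 genes under 100 normalized counts in iMNs. For *NEUROD1* 33 genes, for *NEUROD4* 34 and for *TLX3* 48 had a larger one. The central 90% of genes lay between -2.23 and 1.53, and *NEUROG2*, with 1775 genes lower, lay inside it.

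Levels of different genes were compared per kb of the reference transcript. In iMNs the order from high to low was *POU3F2* at 367 normalized counts per kb, *NEUROG2* at 115, *NEUROD1* at 35.6, *NEUROD4* at 10.5, *TLX3* at 8.35 and *POU4F1* at 5.34. *POU3F2* made up 67.8% of the summed level of the 6 genes there and was the only one above the median gene of the table, which stood at 287 per kb. In i3Ns *POU4F1* came first at 2892 normalized counts per kb, followed by *NEUROD1* at 1620, *POU3F2* at 547, *NEUROD4* at 474, *NEUROD2* at 401, *TLX3* at 267, *POU4F2* at 212, *NEUROG2* at 49.7 and *NEUROG1* at 2.84.

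The last gene in iMNs was thus the first in i3Ns. *POU4F1* held 44.7% of the summed level of the 9 genes in i3Ns and 0.986% of that of the 6 in iMNs. Of the 9 genes, 7 were above the median gene of the i3N table, 210 per kb, and *POU4F2* passed it by a factor of 1.01 only. In the i3N order *POU3F2* and *NEUROD4* differed by a factor of 1.15 and *NEUROD4* and *NEUROD2* by 1.18, and in the iMN order *NEUROD4* and *TLX3* differed by 1.26. Without a spread over libraries, it cannot be said which of these neighbours differ.

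**Figure D3:**
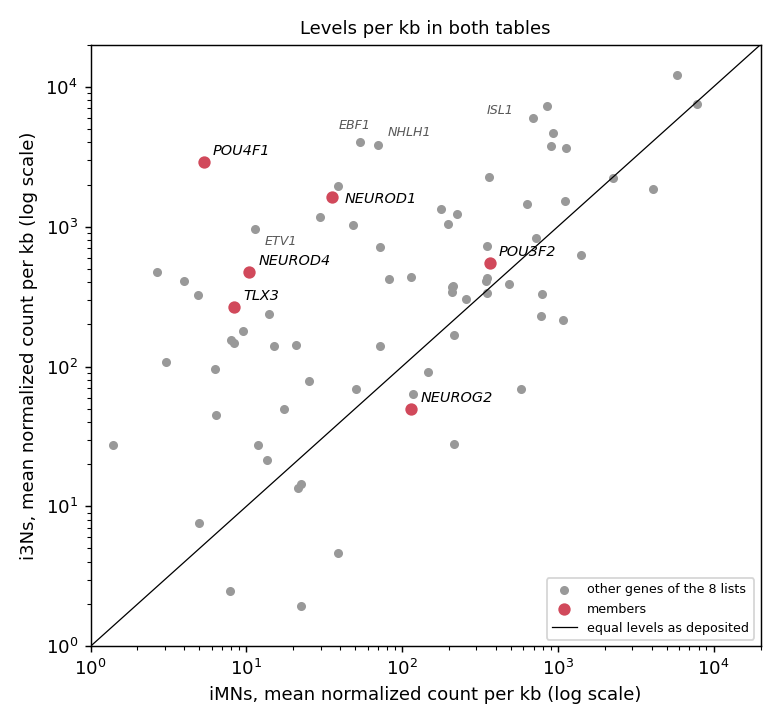
Mean normalized count per kb of reference transcript in iMNs (horizontal) and i3Ns (vertical), both on log axes, for 6 members (red) and the other genes of 8 lists that are in both tables (grey). The line marks equal levels as deposited. *POU4F1* lies at 5.34 and 2892, *POU3F2* close to the line at 367 and 547, and *NEUROG2* under it.

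The transcripts of the 9 genes are short and made of few exons, from 1 in *NEUROG1* and *POU3F2* to 3 in *TLX3*, and from 1534 bases (*TLX3*) to 4885 (*POU3F2*). To see how far reads of one gene could be assigned to another, the 31-base windows of each reference transcript were looked up on both strands in all other GENCODE transcripts. *NEUROG1* and *NEUROD4* shared none, *NEUROD1* shared 2.85%, most with *CERKL*, whose annotation overlaps it on the same strand and which was listed at 28.4 in iMNs and 105 in i3Ns, and *NEUROG2* 2.74%, all with its antisense RNA *NEUROG2-AS1*. *POU3F2* shared 25 of its 4855 windows with *POU3F3* and 23 with *POU3F1*, and *POU4F1* shared 2 of 4509 with *POU4F3*. The largest shares were with unnamed antisense RNAs, 27.3% for *POU4F1* and 14.4% for *TLX3*, neither of which was listed in either table. Whether the quantification used strand is not given in the sources used here, so sense and antisense reads cannot be told apart at those loci.

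Neurogenin and NEUROD proteins bind E-boxes of the type CAGATG, and many other bHLH dimers bind CAGCTG, while some POU proteins bind the octamer ATTTGCAT. These letters were searched on both strands of RefSeq promoters (GRCh38.p14, 250 bases before to 50 after the start), where all 9 members were matched. CAGATG was present in 1 of 9 members and in 14.8% of the 27305 promoters, CAGCTG in 2 of 9 and 17.7%, and the octamer in 1 of 9 and 1.80%. The motifs do not overlap in the members. The 4 matches are shown 5′ to 3′ along the gene, with the motif in capitals, because these letters are ones that some proteins of the same families bind. In *NEUROG1* the octamer reads as its reverse complement. A match shows the letters only, not binding. The RefSeq start used for *NEUROD2* lies inside the GENCODE span of the gene given above, and so does its match. The matches lie at chr17:39608042-39608069 (minus strand, *NEUROD2*), chr12:55019917-55019944 (plus strand, *NEUROD4*), chr13:78603651-78603678 (minus strand, *POU4F1*) and chr5:135536086-135536115 (minus strand, *NEUROG1*).
NEUROD2: gtagagagtgaCAGATGgcggcgggtcc
NEUROD4: tcctccctggtCAGCTGggagagcaatc
POU4F1: acagacggagaCAGCTGatgcctgtcag
NEUROG1: gagcataaattATGCAAATacccgggcgct

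The genes that cooperate with these factors or oppose them were read from fixed lists. E proteins, the dimer partners of neural bHLH factors, were higher in i3Ns in 3 of 3 genes, with a median centred difference of 1.08. *TCF4* went from 584 normalized counts in iMNs to 5749 in i3Ns (3.20), and *TCF3* from 3007 to 6834 (1.08). Of 14 other neural bHLH genes, 8 were in both tables and 6 of those were higher in i3Ns (median 2.46). *NHLH1*, a bHLH factor of newly born neurons, had 179 normalized counts in iMNs and 9776 in i3Ns (5.67), close to the difference of *NEUROD1*. *NHLH2*, its paralog, had 2350 and 11696 (2.22), and *BHLHE22* had 31.2 and 584 (4.13). *NEUROD6* was in neither table, and the proneural genes *ATOH1* and *NEUROG3* were listed in i3Ns alone at 2.53 and 1.89.

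Inhibitors of proneural factors went in both directions. All 11 genes of the ID, HES and HEY families with *REST* were in both tables, 8 of them higher in i3Ns, with a median of 0.60. *ID4*, which sequesters E proteins, had 3302 normalized counts in iMNs and 28192 in i3Ns (2.99), while its relative *ID3* had 554 and 65.9 (-3.17). *HEY2*, a Notch target, had 281 in i3Ns and a value just above the lowest listed one in iMNs (5.04). *HES4* had the highest level per kb of the list in iMNs, 4061 normalized counts per kb against 1853 in i3Ns. The list called the neurogenin cascade had 14 of its 15 genes in both tables, 11 of them higher in i3Ns (median 0.84). Whether neurogenins switch on its genes in these cells was not tested. *EBF1*, a factor of early neuronal differentiation, had 289 and 21848 normalized counts (6.14), and *INSM1*, a zinc finger factor of newborn neurons, had 84.4 and 3326 (5.20). *SOX11*, at 70503 and 67211, and *SOX4*, at 28315 and 58678, were abundant in both neuron types. With centring on 8 pan-neuronal genes, 13 of 14 genes of this list were higher in i3Ns.

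Among 8 other POU genes, 5 were higher in i3Ns (6 with centring on pan-neuronal genes) and the median was 0.46. *POU4F3*, the third POU4 paralog, had 12.6 normalized counts in iMNs and 835 in i3Ns (5.95), so that *POU4F1* and *POU4F3*, the POU4 genes in both tables, were both higher in i3Ns by over 5 on the log2 scale. *POU2F2* had 98.7 and 1670 (3.98), and the *POU3F2* paralogs differed among themselves, with *POU3F1* at 1038 and 1281 (0.20), *POU3F3* at 1.40 on the log2 scale and *POU3F4* lower in i3Ns, at 86.4 and 7.47 (-3.63). Of 12 factors of sensory and autonomic neurons, 12 were listed in i3Ns and 7 in iMNs, and 6 of the 7 were higher in i3Ns (median 2.34). The iMN table lists fewer genes in general, 16406 against 19016. *DRGX*, a homeodomain factor of dorsal root ganglion and dorsal horn neurons, had 12.2 and 1256 (6.58), and *ETV1* had 73.9 and 6241 (6.30), while *PRDM12* was lower, at 52.9 and 33.4 (-0.76). The *TLX3* paralogs *TLX1* and *TLX2* were listed in i3Ns alone, at 777 and 99.3.

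**Figure D4:**
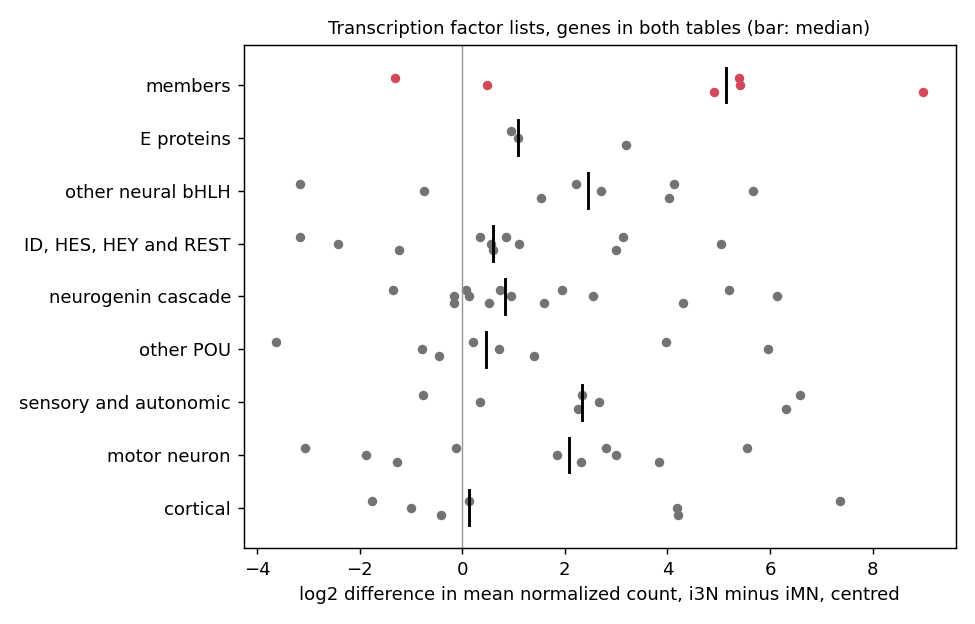
Centred log2 difference, i3N minus iMN, for each gene in both tables (points) by list, with the median as a black bar and the members in red. The members have a median of 5.15 over 6 genes, against 2.46 for other neural bHLH genes, 2.34 for sensory and autonomic factors and 0.46 for other POU genes. Members and lists were chosen with earlier results of these data known, so the medians are descriptions only.

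The labelled neuron types were read against markers of their own and of other cells. All 8 pan-neuronal genes were above the median gene per kb in both tables, 2 of them higher in i3Ns (3 as deposited) with a median of -0.56, *STMN2* at 81083 and 84089 and *SNAP25* at 18426 and 4847. Of 6 motor neuron markers 2 were higher in i3Ns, or 4 with centring on pan-neuronal genes. *SLC5A7*, the choline transporter, had the largest difference toward iMNs of this list (8460 against 2472 normalized counts, -1.87). *SLC18A3* (-0.84) and *PRPH* (-0.42) were lower in i3Ns by less than 1. *CHAT* was nearly equal, at 533 and 527 (-0.12, or 0.45 with centring on pan-neuronal genes). *MNX1*, the HB9 gene by whose promoter iMNs were sorted, was at 430 in iMNs and 2279 in i3Ns (2.31), and *ISL1* at 1663 and 14299 (3.00). Motor neuron transcription factors were higher in i3Ns in 6 of 10 cases, or 7 with centring on pan-neuronal genes, with *ISL2* at 70.6 and 3558 (5.56), *LHX3* at 15.1 and 230 (3.83) and *ONECUT2* at 36938 and 36311 (-0.12). The 3 lower in i3Ns by over 1 were *NKX6-2* at 599 and 77.0 (-3.06), *FOXP1* at 5594 and 1643 (-1.87) and *ONECUT1* (-1.28). Of 4 glutamatergic markers 2 were higher in i3Ns, or 3 as deposited and with centring on pan-neuronal genes. In i3Ns *SLC17A6* and *SLC17A7*, the vesicular glutamate transporters, were at 11237 and 6490 against 593 and 50.1 in iMNs. Of the glutamate receptor subunit genes in the list, *GRIN1* was at 3599 in iMNs and 717 in i3Ns (-2.43) and *GRIA2* at 4956 and 5070 (-0.07), which is the gene whose direction turned with the scaling. Of 11 cortical factors 7 were in both tables and 4 of those were higher in i3Ns, or 5 with centring on pan-neuronal genes. *EMX1*, a factor of cortical progenitors, and *FEZF2*, one of deep-layer neurons, were listed in i3Ns alone at 59.1 and 9.17, both under the median gene per kb, while *TBR1*, another factor of deep-layer cortical neurons, was at 10.2 in iMNs and 1801 in i3Ns (7.37). *BCL11B* was at 11.9 and 233 (4.20) and *CUX1* at 6662 and 5354 (-0.41).

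Markers of other cells also differed with the neuron type. Among 6 genes of progenitors and dividing cells, 4 were higher in i3Ns, with *VIM* at 3376 and 36571 normalized counts (3.34), *MKI67* at 28.3 and 522 (4.10) and *TOP2A* at 22.5 and 311 (3.69), while *SOX2* was at 53.9 and 38.9. Of 3 pluripotency genes, *LIN28A* was at 215 and 4216 (4.20), and *POU5F1* and *NANOG* were listed in i3Ns alone at 13.9 and 7.73. Of 5 sensory neuron markers 4 were in both tables and 3 of those were higher in i3Ns, none above the median gene per kb in either. *SCN10A*, a sodium channel of nociceptors, was listed in i3Ns alone at 3.99. Of 7 glial genes *GFAP*, *AQP4* and *SOX10* were in neither table and 2 were in both, with *MBP* at 329 and 949. Of 4 mesenchymal genes 3 were in both tables and higher in i3Ns, with *COL1A1* at 1321 and 4228. The part of these cells in the members' levels was not tested.

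By the pair of mean normalized counts in both tables, the gene nearest to *NEUROD4* was *TBX3*, at 41.1 and 1752 (a distance of 0.089 on the log2 scale), followed by *RGS10* and *PMEL*. The nearest to *NEUROD1* in the main annotation were *MAB21L2*, at 84.7 and 4658 (0.22), and *INSM1* (0.29), after an identifier of *PPP1R18* outside it (0.19). *POU4F1* had no close neighbour, the nearest being *SLC17A7*, at 50.1 and 6490, a distance of 1.46. These likenesses rest on 2 values for each gene.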

How the data were processed

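Total RNA from iMNs and i3Ns was depleted of ribosomal RNA and sequenced as paired reads. Per the study's methods, fastp trimmed the reads, Salmon gave transcript abundances, and DESeq2 was used by the authors to contrast the shRNA groups within each neuron type. Versions, annotation and the filter on low counts are not given in the sources used here, and the submitters' processing notes name hg38. The deposited signal for each gene is a mean normalized count over 6 libraries, not divided by length. The same tables hold the authors' log2 fold changes, their standard errors and 2 columns of p-values. These are the authors' own comparison and were not used, so no test of *SMN*-KD was made. Depth per library is unknown.

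Members and lists were matched on the Ensembl identifier of GENCODE release 44 (GRCh38). Members and lists were chosen with earlier results of these data known. Of the identifiers, 693 in the iMN and 878 in the i3N table are outside that annotation and have no length. Levels per kb used the MANE Select transcript, or the Ensembl canonical or longest one. Of each list, the gene highest per kb in each table and the 2 with the largest absolute difference were to be named, as were the 3 nearest genes of the 3 members that differed most. Other list genes were named after their values were seen, and some list genes are not reported here. The steps were run in Python 3.11.15 with pandas 2.3.3, and centring was tested on simulated data. Alternatives changed the scaling between tables, the transcript length, the row matching and the filter.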

Additional observations from a re-analysis of the deposited data

How the results depend on the processing

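The number of members in both tables (6) and the number of those higher in i3Ns (5) were the same under every alternative run. Scaling the tables as deposited, by their totals or by all shared genes moved the log2 differences by at most 0.10. Centring on 8 pan-neuronal genes moved all of them up by 0.56, giving -0.74 for *NEUROG2*, 1.04 for *POU3F2* and 9.55 for *POU4F1*. The count of members above the median gene per kb was 1 in iMNs and 7 in i3Ns, and it dropped to 0 and 4 when the median was taken over genes that reached 100 normalized counts, which raises that median. Without division by length it was 1 and 6, and *TLX3* was the gene lost. Low members such as *TLX3* in iMNs and *NEUROG1* in i3Ns have mean normalized counts close to the lowest listed, and the depth behind them is unknown. No replicate could be left out, since the deposited means hold no value per library. No paired analysis was possible because the columns carry no replicate.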

Other observations

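Besides *POU4F1*, the genes with the largest centred log2 differences toward i3Ns in the main annotation included others outside the 9 members, named after their values were seen. *UNCX*, a homeodomain factor, had a mean normalized count of 9.61 in iMNs and 3569 in i3Ns (8.44). *HTR3A*, a serotonin-gated ion channel subunit, had 8.75 and 1645 (7.45), and *TBR1* followed at 7.37. Identifiers outside that annotation, of *EHMT2* (8.80), *PBX2* (6.99) and *DDX39B* (6.91), stood among them. In all of these the iMN value lay near the lowest one listed in that table, 7.73, except for *DDX39B* at 41.5.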
